A study of Homo sapiens with 2 samples.

Results

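PC3 cells that had received Non-T siRNA, a non-targeting duplex, formed the control channel of the experiment, and their baseline expression is described here from that channel alone, without any ratio to the SUB1 siRNA cells. Members were all probes for genes in the Cy3 channel of both arrays, ranked by background-corrected Cy3 intensity, with the scanner software's well-above-background flag as the detection call. Of 41000 probes 40999 were used, and they stood for 30475 genes, of which 16061 (52.7%) were detected on both arrays through at least 1 probe, 13651 (44.8%) were well above background on neither array with any probe, and 763 lay between, being flagged on 1 array or split between probes.

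PC3 is an established prostate cancer cell line. The study asked what loss of SUB1, a transcriptional coactivator, does to prostate cancer cells. Each of 2 dual-colour Agilent whole human genome arrays on 1 slide carried RNA from Non-T siRNA cells in Cy3 beside RNA from cells given 1 of 2 SUB1 siRNA duplexes in Cy5. The Non-T siRNA cells were transfected with Lipofectamine RNAiMAX, transfected again a day later and harvested 72 h after the first transfection, so they are transfected control cells and not untreated ones. The labels name the Cy3 source as non-targeting and the Cy5 source as SUB1 siRNA, but they also list SUB1 beside the non-targeting siRNA under the Cy3 channel, and the source names were followed here. Whether both arrays carried the same Non-T siRNA extract is not stated in the sources used here.

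PC3 was derived from a bone metastasis and grows without androgen. As background, the line is known for losing alpha-catenin, the link between cadherins and actin, and for having little or no prostate-specific antigen. Luminal cells of the prostate carry the simple keratins KRT8 and KRT18 and secrete kallikreins under androgen control, basal cells carry KRT5, KRT14 and p63, and vimentin, encoded by VIM, is the intermediate filament of mesenchymal cells that many cultured carcinoma lines also make.

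Both arrays gave nearly the same picture. On each array 54.3% of gene spots were well above background and none was saturated. Negative control spots had a median corrected intensity of 66.3 on array 1 and 63.3 on array 2, the dimmest detected probe had 80.8 and 81.9, the median detected probe had 299 and 260, and the brightest probe reached 100500 and 84550. Over probes detected on both arrays the difference between arrays had a median of 0.20 and an SD of 0.11 on the log2 scale, and 99.9% of them lay within 0.5 log2 units of that median. For the 198 detected probes printed in 10 spots, the SD of the difference was 0.05, against 0.08 that the spread among their spots alone would give. Apart from the median shift, the arrays therefore differed by less than the spot-to-spot noise. They were counted as 1 sample measured on 2 arrays. Every spread given is between these arrays, and whether it is technical alone was not tested. Intensities below are background-corrected Cy3 intensities in the scanner's arbitrary units, array 1 first, from the brightest probe of a gene, and the percentile is the gene's place among all 30475 genes.

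The order of genes by brightness is a description only, because a probe's own sequence also sets its signal. Among the 3342 genes with all of several probes detected, the median gap between the brightest and the dimmest probe of a gene was 2.69-fold. Of 7774 genes with 2 or more probes, 2583 (33.2%) had detected and undetected probes side by side. Where a value below is given without its probes, other probes of that gene may have been undetected. The detected share also rose with the number of probes: 44.7% of genes with 1 probe, 73.8% with 2 and 81.3% with 3 were detected. The cause of this rise was not tested.

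Most detected genes were dim. Of the detected genes, 541 had a mean intensity under 100, 4954 (30.8%) lay from 100 to 200, 6350 (39.5%) from 200 to 1000, 3596 (22.4%) from 1000 to 10000 and 620 (3.86%) above that. Detection and brightness overlapped in a narrow band. The dimmest detected gene, the transcript AL533190, had 92.7 and 84.3, while the brightest gene detected on neither array, the transcript behind probe A_23_P403836, had 99.5 and 92.5. Among protein-coding genes of the RefSeq table, 11319 of 17171 (65.9%) were detected, against 35.3% of the entries that kept the array's own name.

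**Figure D1:**
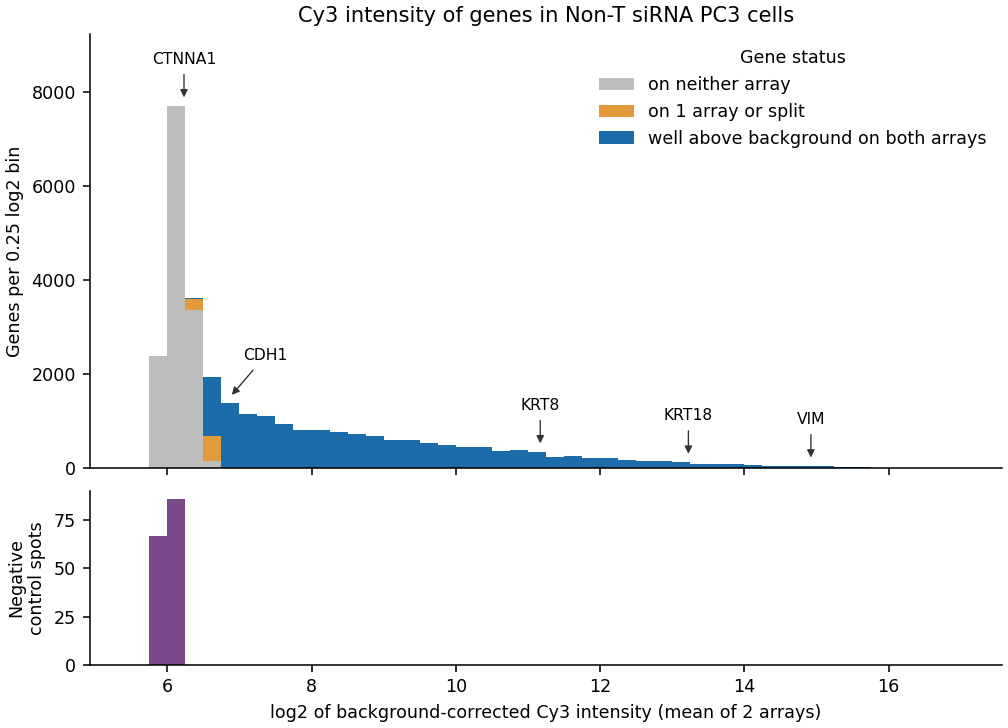
Number of genes per 0.25 log2 bin of background-corrected Cy3 intensity (mean of both arrays, brightest probe), coloured by detection status, above the same scale for the 153 negative control spots. Detected genes spread over a long upper tail with KRT8, KRT18 and VIM in it, CDH1 lies near its lower end, and CTNNA1 lies among genes detected on neither array and near the range of the negative controls.

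Vimentin and the simple keratins were bright, and prostate-specific antigen was split between its probes. VIM gave 33270 and 29020 (percentile 99.5), and its second probe gave 17650 and 16570. KRT18 gave 10020 and 9140 with its brightest probe, 3427 and 2931 with the next and 2576 and 2303 with the third, while the remaining probe, annotated on the opposite strand, sat near the detection limit at 92.3 and 93.4. KRT8, the partner that KRT18 pairs with in filaments, gave 2498 and 2127 with its brighter probe and 113 and 105 with the other. KRT8, KRT18 and VIM were each detected with every probe on both arrays.

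KLK3, which encodes prostate-specific antigen, gave opposite calls with its 3 probes. The bright one, at chr19:56050264-56050323 on hg18 (plus strand), gave 18610 and 15420, which places the gene at percentile 98.9. The probe at chr19:56053484-56053543, 3220 bases further along, gave 87.4 and 83.8, and the one at chr19:56053565-56053624, labelled with the RefSeq transcript, gave 65.2 and 67.1. Neither of these was well above background on either array, and the bright probe is labelled with an alternative KLK3 transcript. With the mean over the 3 probes in place of the brightest, KLK3 fell to percentile 82.1. KLK2, the neighbouring kallikrein gene, had 3 probes as well, of which 1 passed the call, at 106.9 and 89.0. What the bright KLK3 probe measured was not tested, and the probe of the RefSeq transcript lay at the level of the negative controls.

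Promoters at both ends of expression are shown because the sequence before the start of a gene differed between detected and undetected genes, as described further on. KLK3 and KLK2 stand for androgen-regulated genes with few CG dinucleotides, GSTP1 and VIM for genes among the brightest on the arrays, and CTNNA1 for an undetected gene with many CG dinucleotides. The sequences come from RefSeq on GRCh38.p14 and give the 250 bases before the first listed start on the plus strand, 5′ to 3′, with CG dinucleotides and the motif TATAAA (searched on both strands, so also as TTTATA) in capitals. The regions are chr19:50854665-50854914 for KLK3, chr19:50873189-50873438 for KLK2, chr11:67583562-67583811 for GSTP1, chr10:17227991-17228240 for VIM and chr5:138753175-138753424 for CTNNA1.
KLK3: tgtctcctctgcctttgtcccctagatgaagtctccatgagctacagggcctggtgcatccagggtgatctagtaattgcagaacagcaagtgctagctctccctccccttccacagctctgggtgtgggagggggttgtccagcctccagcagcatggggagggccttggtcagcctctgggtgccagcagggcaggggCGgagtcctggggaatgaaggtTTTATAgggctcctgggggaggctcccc
KLK2: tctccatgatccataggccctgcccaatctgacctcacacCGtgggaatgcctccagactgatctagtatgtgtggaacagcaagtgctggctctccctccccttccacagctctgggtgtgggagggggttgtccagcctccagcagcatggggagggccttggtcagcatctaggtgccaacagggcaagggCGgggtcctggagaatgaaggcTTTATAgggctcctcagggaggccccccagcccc
GSTP1: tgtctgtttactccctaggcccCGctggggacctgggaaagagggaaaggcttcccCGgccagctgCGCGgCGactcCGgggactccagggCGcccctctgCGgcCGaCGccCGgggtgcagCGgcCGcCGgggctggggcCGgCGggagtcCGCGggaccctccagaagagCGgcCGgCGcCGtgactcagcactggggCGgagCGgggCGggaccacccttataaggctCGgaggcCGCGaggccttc
VIM: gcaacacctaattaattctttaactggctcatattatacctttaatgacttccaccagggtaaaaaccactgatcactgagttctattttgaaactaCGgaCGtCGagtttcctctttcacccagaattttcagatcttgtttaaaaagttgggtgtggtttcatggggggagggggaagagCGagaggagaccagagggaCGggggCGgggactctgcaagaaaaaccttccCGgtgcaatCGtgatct
CTNNA1: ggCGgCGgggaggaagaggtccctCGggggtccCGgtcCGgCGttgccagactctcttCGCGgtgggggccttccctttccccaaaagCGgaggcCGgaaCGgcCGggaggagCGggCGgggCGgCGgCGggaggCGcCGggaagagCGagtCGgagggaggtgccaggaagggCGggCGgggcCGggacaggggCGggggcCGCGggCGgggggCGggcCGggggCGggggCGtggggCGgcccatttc
The KLK3 and KLK2 promoters held 1 and 2 CG dinucleotides, and each held TTTATA, which began 28 and 34 bases before the start. GSTP1 held 28 CG dinucleotides, VIM 8 and CTNNA1 33, and none of these 3 held the motif. A match is a description of letters and not of a bound site.

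**Figure D2:**
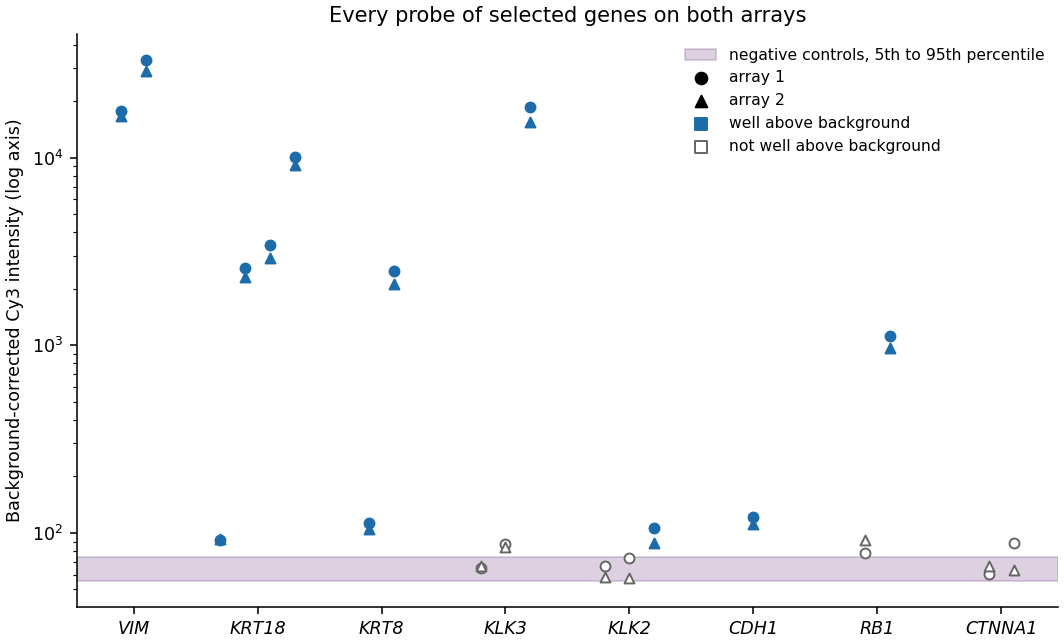
Background-corrected Cy3 intensity (log axis) of every probe of 8 genes, with circles for array 1 and triangles for array 2, filled where the probe was well above background on both arrays. The shaded band spans the 5th to the 95th percentile of the negative control spots. The probes of CTNNA1 are open and in or near the band, while KLK3 has 1 filled probe far above 2 open ones.

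CTNNA1, which encodes the alpha-catenin that PC3 is known to lack, was at or near the level of the negative controls, of which the 5th to the 95th percentile spanned 55.9 to 74.4 on array 1 and 55.8 to 72.2 on array 2. Its probe at chr5:138298286-138298345 on hg18 gave 60.4 and 66.3, and its second probe gave 88.5 and 63.9. Neither was well above background on either array, and the gene was not called in the Cy5 channel of both arrays either. The genes beside it on chromosome 5 were mostly detected. Of its 10 nearest measured neighbours in the RefSeq gene order 7 were, including HSPA9, a mitochondrial chaperone next to it, at 2354 and 1953, and PAIP2, a translation regulator, at 6516 and 5500. EGR1, LRRTM2 and SLC23A1 were detected on neither array. That share compares with 65.9% of all protein-coding genes.

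Of 26 tumour suppressors 19 (73.1%) were detected, beside 65.9% of protein-coding genes. When over 0.5 of a gene's probes had to be detected, the count was 14 of 26. That rule detected 13988 of all 30475 genes, against 16061 through any probe, and its share of protein-coding genes is not given. GSTP1, a glutathione transferase whose promoter is commonly methylated in prostate cancer, was the brightest of them at 31330 and 26840. CDKN2A, which encodes p16, gave 4363 and 3913, NF2, which encodes merlin, gave 5579 and 4878, and KLF6, a zinc finger factor, gave 1795 and 1518. RB1, the retinoblastoma gene, gave 1120 and 967.5 with a probe of 10 spots and had a second probe that was not well above background. Besides CTNNA1, the undetected members included APC, a regulator of beta-catenin, at 77.7 and 76.6 and ATM, the DNA damage kinase, at 85.9 and 73.8.

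The genes on which the study centres were all detected. SUB1 gave 8447 and 6289 (percentile 97.2), and its other 3 probes gave 5332 and 4635, 1887 and 1662, and 358 and 293. MYC, the growth-promoting transcription factor, gave 1967 and 1708 with a probe of 10 spots, 117 and 136 with a second and background values with the third, 67.5 and 72.3. PLK1, the polo-like kinase of mitosis, gave 1488 and 1292 with 1 probe and 153 and 137 with the other. EZH2, the histone methyltransferase of polycomb complex, gave 1436 and 1263. BUB1B, a spindle checkpoint kinase, gave 571 and 484, and CDKN1B, which encodes the cell cycle inhibitor p27, gave 405 and 353. With all probes averaged in place of the brightest, MYC moved from percentile 91.0 to 73.4.

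The bright epithelial markers were mostly keratins. Of 22 simple epithelial markers 18 (81.8%) were detected, beside 65.9% of protein-coding genes, but the median member lay at percentile 60.1 and only 6 were above the 75th percentile. KRT19, the smallest acidic keratin, led with 53380 and 47900, followed by KRT18, KRT8 and KRT7, the last with 2366 and 2176. EPCAM, an epithelial adhesion molecule, gave 838 and 758. Below these the values dropped close to the detection limit: CDH1, which encodes E-cadherin, gave 121 and 111 with a probe of 10 spots whose spots ranged from 98.9 to 141 on array 1, and CLDN7, a tight junction claudin, gave 128 and 115. The splicing regulator ESRP1, the epithelial transcription factors GRHL2 and OVOL1, and the small GTPase RAB25 were detected on neither array, whereas ESRP2, the paralogue of ESRP1, gave 921 and 735.

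Along the type II keratin cluster on chromosome 12, detected genes lay at the edges. A run of 14 neighbouring measured genes from KRT82 to KRT76, which holds the basal keratin genes KRT5, KRT6A, KRT6B and KRT6C and the epidermal genes KRT1 and KRT2, had no detected member. On the one side of the run lay KRT80 at 1724 and 1393, KRT7, and KRT81, a hair keratin, at 28120 and 24420. Toward KRT8 and KRT18 on the other side, KRT3 and KRT4 were detected at low levels of 201 and 176, and 107 and 92.2, and KRT79 and KRT78 were not detected. KRT81 and its close relatives KRT83 and KRT86 share sequence, and how much signal they share was not tested. The genes of this paragraph outside the run and the lists were chosen after their values were seen.

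Basal laminins and integrins were detected and most basal keratins were not. Of 22 members 13 (59.1%) were detected, near the 65.9% of protein-coding genes. Laminin chains and a laminin receptor were present: LAMB3 gave 30660 and 25160, LAMA3 gave 1498 and 1154, ITGA6 gave 1290 and 1122 and ITGB4 gave 1214 and 879. S100A2, a calcium-binding protein of basal cells, gave 13250 and 10850, and CD44, the hyaluronan receptor, gave 3087 and 2651. The basal keratins KRT5, KRT17, KRT6A and KRT6B and the collagen gene COL17A1 were detected on neither array, and TP63, which encodes the basal master regulator p63, was not called on both. KRT15 gave 598 and 486, and KRT14 gave 291 and 243 through 1 of its 2 probes.

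Androgen-regulated and luminal genes gave 16 of 28 detected (57.1%), beside 65.9% of protein-coding genes, and KLK3 was the brightest through its 1 detected probe. Next came HOXB13, ELL2 and FOXA1. HOXB13, the prostate homeobox factor, gave 6264 and 5280, FOXA1, a pioneer factor of luminal cells, gave 3248 and 2987, and ELL2, an elongation factor, gave 4129 and 3626. STEAP1, a surface metalloreductase, gave 2064 and 1761 with all 3 probes detected. TMPRSS2, ACP3, which encodes prostatic acid phosphatase, and MSMB, a seminal plasma protein, were detected on neither array, and neither were KLK4, TRPM8 and TGM4. FKBP5, an androgen target, was close to the limit at 140 and 132. Of 16 detected genes, 12 had every probe detected, and KLK3 and KLK2 were among the other 4.

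Of 31 mesenchymal genes 24 (77.4%) were detected, beside 65.9% of protein-coding genes, with a median at percentile 66.7. When over 0.5 of a gene's probes had to be detected, the count was 19 of 31, and 18 of 22 for simple epithelial markers. Under that rule 13988 of all 30475 genes were detected, against 16061 through any probe. After VIM, the brightest was COL6A1, a collagen VI chain, at 17440 and 13740. MSN, the membrane linker moesin, gave 3026 and 2906, S100A4, a motility-associated calcium-binding protein, gave 2813 and 2436, and THY1, a surface glycoprotein of fibroblasts, gave 1805 and 1476. CDH2, which encodes N-cadherin, gave 888 and 747. Regulators of the mesenchymal state were dimmer: TWIST1 gave 476 and 481, SNAI2 gave 271 and 205, SNAI1 gave 237 and 199 and ZEB2 gave 157 and 132, while ZEB1 was not called on both arrays. TWIST1 and SNAI2 were each detected through 1 of 2 probes, as were COL5A1 and TAGLN below. The fibrillar collagen genes COL1A2 and COL3A1, ACTA2, PDGFRA, PDGFRB and POSTN were detected on neither array. Other stromal members of the list were detected at low to moderate levels, SPARC at 543 and 477, COL5A1 at 265 and 209, FBN1 at 206 and 179, COL1A1 at 144 and 124, DCN at 130 and 106, LUM at 124 and 104, TAGLN at 104 and 107 and CNN1 at 104 and 97.0.

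Markers of other lineages had lower detected shares than the 65.9% of protein-coding genes, with single bright exceptions. Of 22 neuroendocrine markers 6 were detected (27.3%), led by ENO2, neuronal enolase, at 1132 and 979, and SCG5, a secretory chaperone, at 508 and 432. SYT1, a vesicle calcium sensor, gave 213 and 175, and CHGA, which encodes chromogranin A, gave 155 and 140. SYP, CHGB and NCAM1 were detected on neither array. Hepatocyte markers gave 2 of 15, SERPINA1 at 113 and 101 and CPS1 at 101 and 94.99, with ALB, APOA1, APOB and TTR undetected. Muscle markers gave 2 of 12, of which TNNT1, a slow troponin, stood far above the rest at 12270 and 10250 and MYOG was dim at 116 and 97.9. Haematopoietic markers gave 6 of 20, where CD79A, a B cell receptor chain, led at 1618 and 1286, FCER1G, CD68 and TYROBP followed, and PTPRC, CD3D and CD2 were undetected. Endothelial markers gave 5 of 12, led by ROBO4 at 902 and 747, with VWF, CDH5, KDR and TEK undetected. Above the 95th percentile of negative controls the counts were higher, beside 20257 of all 30475 genes. They were 10 for neuroendocrine, 5 for hepatocyte, 6 for muscle, 10 for haematopoietic and 7 for endothelial markers. The summed intensity of the list, undetected members included, was 1153 and 1119 for hepatocyte, 3930 and 3413 for haematopoietic, 2090 and 1808 for endothelial, 3419 and 3011 for neuroendocrine and 13150 and 11090 for muscle markers, the last nearly all from TNNT1, and 72470 and 65060 for the simple epithelial markers, mostly from KRT19. These sums are over lists of different length and different probes.

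Among the lists for cell types foreign to the prostate, the neuronal one had the most members above the 75th percentile, 4 of 13. NEFL, the light neurofilament chain, gave 8063 and 6572 with both probes detected, TUBB3, a neuronal tubulin often made by carcinoma lines, gave 2485 and 1999, GRIN1, a glutamate receptor subunit, gave 3903 and 3025 and SYN1, a synaptic vesicle protein, gave 8481 and 6147 with 1 of 2 probes. RBFOX3, GAD2, STMN2 and MAP2 were undetected, and the list, with a summed intensity of 23930 and 18660, reached 7 of 13 (53.8%), or 4 of 13 when over 0.5 of a gene's probes had to be detected. Cancer-testis antigens gave 5 of 21, beside 65.9% of protein-coding genes, but 10 with the positive-and-significant flag, 11 and 10 above the 95th and the 99th percentile of negative controls and 3 with over 0.5 of the probes. The well-above-background call detected 16061 of all 30475 genes. That other flag detected 20478, those percentiles 20257 and 18777, and over 0.5 of the probes 13988. The 5 antigens were PRAME, with both probes detected at 1786 and 1418 for the brighter, BAGE at 1890 and 1606 through 1 of 2 probes, SPANXA1, SSX2 and MAGEA6. MAGEA1, MAGEA4, MAGEA10 and MAGEA12 were detected on neither array.

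**Figure D3:**
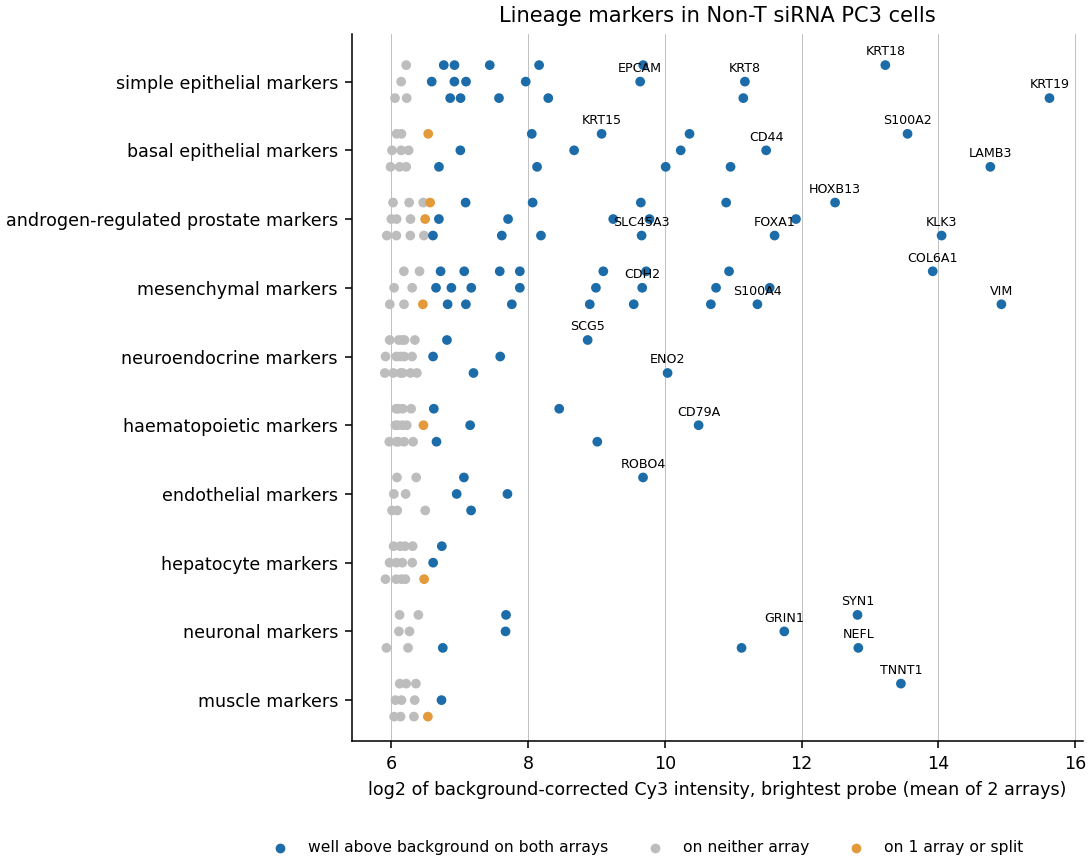
Mean log2 background-corrected Cy3 intensity of every measured member of 10 lineage lists, coloured by detection status, with the vertical offset within a list only separating the points. KRT19, VIM, LAMB3, KLK3 and COL6A1 stand at the right, while neuroendocrine, haematopoietic, endothelial and hepatocyte markers cluster at the left, and TNNT1 stands alone in the muscle list.

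Lineage transcription factors gave 24 of 35 detected (68.6%), close to the 65.9% of protein-coding genes. SOX4, a factor of progenitor cells, was brightest at 5503 and 4535, followed by FOXA1, JUN, an AP-1 subunit, at 2008 and 1707, and KLF5, an epithelial zinc finger factor, at 1493 and 1390. FOSL1, another AP-1 subunit, gave 1459 and 1318. The glucocorticoid receptor gene NR3C1 was expressed at 811 and 717 and the vitamin D receptor gene VDR at 267 and 238, whereas the genes for both oestrogen receptors, ESR1 and ESR2, and for the progesterone receptor, PGR, were detected on neither array. GATA2, HNF4A and PAX2 were undetected. The ETS factor genes ETV1, ETV4 and ETV5 were dim, with 271 and 231 for ETV4, the brightest, and ERG was detected through 1 of 3 probes at 155 and 133.

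The 3 undetected adherens junction genes were those of the alpha-catenins. Of 16 adherens junction genes 13 (81.2%) were detected, beside 65.9% of protein-coding genes, and CTNNA1, CTNNA2 and CTNNA3 were not. CTNNA3, at 81.8 and 79.2, lay above the 99th percentile of negative controls. With that rule the count was 14 of 16, beside 18777 of all 30475 genes. The other catenins were detected, with CTNNB1, beta-catenin, at 652 and 600, JUP, plakoglobin, at 242 and 228 and CTNND1, p120-catenin, at 207 and 182. The brightest members were PTPRF, a receptor phosphatase, at 3966 and 3924, VCL, vinculin, at 4087 and 3723, and NECTIN2 at 3347 and 2692. In the desmosome 8 of 13 genes (61.5%) were detected, led by PKP3, plakophilin 3, at 2075 and 1675 and PERP, a desmosomal membrane protein, at 1382 and 1183. DSC2, DSG1, DSG3 and DSC1, desmosomal cadherin genes, were undetected, and DSP, desmoplakin, was not called on both arrays, with 233 and 87.1. Tight junction genes gave 14 of 20 (70.0%), of which F11R, a junctional adhesion molecule, was brightest at 3958 and 3249, CLDN11 gave 1099 and 913 and TJP1, the scaffold ZO-1, gave 1020 and 887. When over 0.5 of a gene's probes had to be detected, the count was 7 of 20. That rule detected 13988 of all 30475 genes, against 16061 through any probe.

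Integrins were led by a single very bright subunit. ITGB1, the beta1 chain shared by many receptors, gave 80030 and 55250 with all 4 probes detected, the thirteenth brightest gene of all. Its alpha partners were dimmer, with ITGA6 at 1290 and 1122, ITGA3 at 1007 and 768, ITGAV at 451 and 386, ITGA5 at 430 and 376 and ITGA2 at 288 and 266. ITGAV was detected through 1 of 2 probes and ITGA2 through 1 of 4. ITGB6, ITGB8, ITGA1 and ITGA4 were detected on neither array, and 13 of 25 integrin genes were detected (52.0%), near the 52.7% of all genes and below the 65.9% of protein-coding ones. Of 23 focal adhesion genes 21 (91.3%) were detected, with PXN, paxillin, at 15780 and 14390 and ACTN1, alpha-actinin, at 7863 and 7295 in front, FERMT1, kindlin 1, at 1398 and 1166 and ZYX, zyxin, at 1333 and 1136. FERMT1 was detected through 1 of 3 probes. FERMT3, the kindlin of blood cells, and TNS1, tensin 1, were undetected.

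Secreted factors and proteases linked to invasion included several of the brighter genes. PLAU, urokinase, gave 30820 and 27460 and its receptor gene PLAUR gave 1404 and 1325. The inhibitors TIMP2 and TIMP1 gave 5851 and 4978, and 4503 and 3867, and the lysosomal protease gene CTSL gave 2348 and 2072. TIMP2 was detected through 1 of 2 probes. Of 24 proteases and inhibitors 20 (83.3%) were detected, beside 65.9% of protein-coding genes, while MMP2, MMP3, MMP10 and TIMP3 were not. The other matrix metalloproteinase genes of the list were detected. MMP14 gave 556 and 467, MMP1 gave 485 and 419, MMP13 gave 310 and 278 and MMP9 gave 147 and 128. MMP7, MMP15 and MMP16 were closer to the detection limit. Among 24 factors linked to bone metastasis, 12 were detected, a share near the 52.7% of all genes and below the 65.9% of protein-coding ones. DKK1, a WNT antagonist that blocks bone formation, gave 19800 and 16190, far above IL6 at 1107 and 985, JAG1, a Notch ligand, at 923 and 729, and CXCL8 at 605 and 576. PTHLH, the parathyroid hormone-related protein gene, gave 350 and 282. PTHLH and CXCL8 were each detected through 1 of 2 probes. TNFSF11, which encodes RANKL, BMP2, BMP6 and BMP7 were undetected, as were CXCR4, at 59.2 and 59.6, and SPP1, osteopontin.

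Glycolysis was the brightest of the metabolic lists, with a median at percentile 93.2. SLC16A3, the lactate exporter MCT4, gave 39790 and 35310, PGK1 gave 37420 and 32340 with all 4 probes detected, GAPDH gave 36530 and 31490 and LDHA gave 19970 and 17650. Of 29 genes 23 (79.3%) were detected, beside 65.9% of protein-coding genes, and the undetected 6 included isoforms best known from other tissues, SLC2A3, PKLR, HK3, SLC2A2 and SLC2A4. The glucose transporter that was detected was SLC2A1, GLUT1, at 2821 and 2332, and both hexokinase genes HK1 and HK2 were detected, HK2 at 3062 and 3164. Of gluconeogenesis and glycogen genes 9 of 15 (60.0%) were detected. GBE1, the glycogen branching enzyme, gave 5447 and 4476, PGM1 gave 3311 and 2916, PYGL, the liver glycogen phosphorylase, gave 3161 and 2592 and PCK2, the mitochondrial form of PEP carboxykinase, gave 1571 and 1495. The gluconeogenic genes PCK1, G6PC1, FBP1 and FBP2 were undetected.

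All 30 genes of the tricarboxylic acid cycle list, which also holds genes of pyruvate entry and cytosolic enzymes, were detected, beside 65.9% of protein-coding genes. MDH1, the cytosolic malate dehydrogenase, led at 13690 and 12080 through 1 of 2 probes. Next came SDHB at 3832 and 3102, PDHA1 at 3712 and 3107 and FH, fumarase, at 3508 and 2791. MDH2, the mitochondrial malate dehydrogenase, gave 1946 and 1710. CS, citrate synthase, was the dimmest at 125 and 126. The pentose phosphate and NADPH list gave 23 of 25, with GPX1, a glutathione peroxidase, at 17440 and 14130, TALDO1 at 9761 and 8802 and TKT at 7418 and 6314 behind GSTP1. GSTA1, a liver glutathione transferase, was undetected. Amino acid genes gave 20 of 21, led by PYCR1, a proline synthesis enzyme, at 7297 and 6759, ASNS, asparagine synthetase, at 4246 and 3705, SHMT2, a serine hydroxymethyltransferase, at 3732 and 3146 and MTHFD1, a folate enzyme, at 3592 and 3047. ASNS was detected through 1 of 2 probes. GLS2, the liver-type glutaminase, was the undetected member.

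OAZ1, antizyme, which leads ornithine decarboxylase to degradation, gave 64440 and 47530, ODC1, ornithine decarboxylase itself, gave 7578 and 6883, SAT1, a polyamine acetyltransferase, gave 3986 and 3677 and AMD1, which supplies decarboxylated S-adenosylmethionine, gave 3927 and 3076. Of 15 polyamine and citrulline genes 13 were detected (86.7%, beside 65.9% of protein-coding genes), and ARG1 and OTC of the liver urea cycle were not. Among lipid synthesis genes, SREBF1, a regulator of lipid genes, gave 4574 and 4069. The desaturases FADS2, through 1 of 2 probes, and FADS1 gave 2129 and 2033, and 1978 and 1748. Of the lipid synthesis list 21 of 23 genes were detected. The exceptions were the enzymes at the head of fatty acid synthesis, FASN at 84.1 and 82.0 with 1 probe and ACACA at 94.3 and 84.5 with the brighter of 2. Neither call held under 3 other rules: all 23 genes were detected with the positive-and-significant flag and above the 95th or the 99th percentile of negative controls. Those rules detected 20478, 20257 and 18777 of all 30475 genes. FASN and ACACA were well above background in the Cy5 channel of both arrays, where dye and siRNA cannot be told apart. Lipid oxidation gave 15 of 23 (65.2%), close to the share of protein-coding genes, led by FABP5, a fatty acid carrier, at 6747 and 5745, ECI1 at 5296 and 4291, ACADVL at 4716 and 4363, and PPARG, a nuclear receptor, at 3715 and 3248. ACADL, PPARGC1A and FABP4 were undetected.

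Of 26 steroid genes 9 (34.6%) were detected, beside 65.9% of protein-coding genes and 16061 of all 30475 genes. With the positive-and-significant flag 16 were, beside 20478 of all genes. Above the 95th percentile of negative controls 14 were, beside 20257 of all genes. ALDH1A3, a retinaldehyde dehydrogenase, gave 5675 and 5055, AKR1C3, which makes testosterone from androstenedione, gave 1743 and 1470, SRD5A3 gave 1172 and 987 and HSD17B4 gave 705 and 569. CYP11B1, an adrenal steroid hydroxylase, was detected at 389 and 334 through 1 of 2 probes. STAR, CYP17A1, CYP21A2 and CYP19A1 of steroid synthesis were detected on neither array, and neither were SRD5A2, the 5-alpha reductase of normal prostate, and UGT2B15 and UGT2B17, which inactivate androgens.

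**Figure D4:**
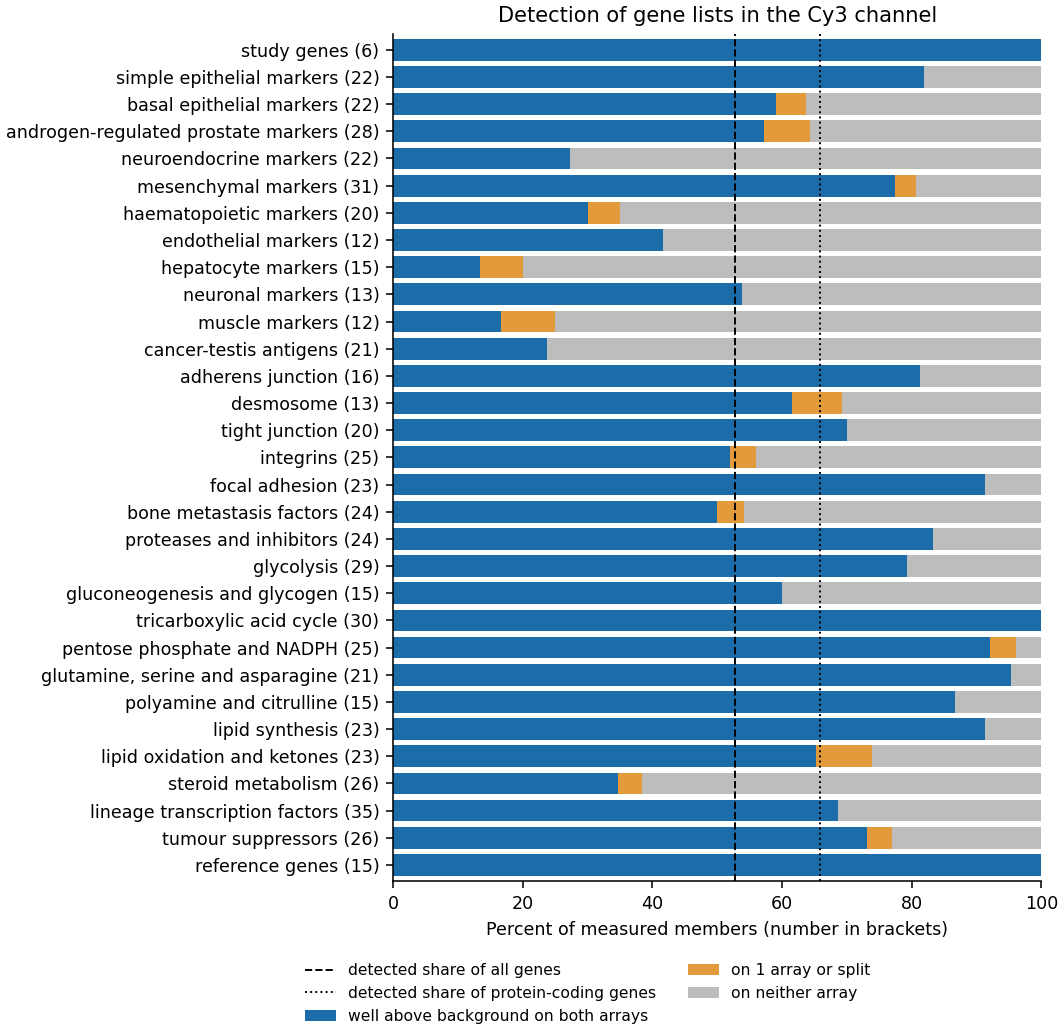
Percent of measured members of each of 31 gene lists that were well above background on both arrays, on 1 array or split between probes, and on neither array, with the number of members in brackets. The dashed line marks the 52.7% of all genes and the dotted line the 65.9% of protein-coding genes that were detected. The tricarboxylic acid cycle and the reference genes reach 100% and the hepatocyte markers 13.3%.

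The brightest genes were housekeeping and ribosomal ones with some exceptions. PRNP, the prion protein gene, came first at 100500 and 84550 with both probes detected. BCAM, a laminin receptor, came next at 82610 and 79110, and S100A6, a calcium-binding protein, gave 86010 and 71100. Of the 20 brightest genes 8 encode ribosomal proteins, among them RPLP1 at 79200 and 69830, RPS28 at 82970 and 65390 and RPS27 at 76070 and 66300. JPT1 and the metallothionein gene MT2A gave 65590 and 72640, and 61270 and 67210, the only genes among the 20 that were brighter on array 2. ISG15, an interferon-induced ubiquitin-like protein, came ninth with 93370 on array 1 and 53740 on array 2, the largest gap between arrays among the 20. A transcript named only by its Ensembl number, ENST00000342773, gave 73930 and 55570, and a probe with no gene name, A_32_P140312, gave 64940 and 59930. For PRNP alone among the 20 did the gap to the next gene, 0.19 log2 units, exceed the gene's own SD between arrays, 0.18. That SD includes the shift common to the arrays, which does not change the order. It therefore cannot say which neighbours in this order are distinct, and this was not tested.

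Some genes were among the brightest through a single probe while another probe of the same gene was at background. CRTC1, a coactivator of CREB, gave 88700 and 68470 with the probe at chr19:18749319-18749378 on hg18 and 88.0 and 69.6 with its other probe, which was not well above background. DRD4, a dopamine receptor, gave 70150 and 56920 with the probe at chr11:630136-630195 and 79.6 and 68.9 with the probe at chr11:629467-629526. The kinase gene PKN2 had 3 detected probes, the brightest at 55940 and 47780, and 1 at 72.5 and 65.0 that was not well above background. RCOR2, a corepressor, gave 57700 and 54170 with 1 probe and 74.5 and 85.4, not well above background, with the other. KMT2C, a histone methyltransferase, gave 52480 and 43930 with the brightest of 5 probes, of which 2 were not well above background. In all, 279 genes had a probe above the 90th percentile and another that was detected on neither array, KLK3 and MYC among them. Which probe reports the gene was not tested.

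Gene families of ubiquitous or restricted expression were set beside the call, which 65.9% of protein-coding genes passed. All 84 ribosomal protein genes were detected, with a median intensity of 25390, and RPL3L, a muscle form, was the dimmest at 132 and 119. Of 112 olfactory receptor genes 10 (8.93%) were detected, of which OR2H1 was brightest at 1428 and 1274 through 1 of 2 probes. OR51E2 and OR51E1, olfactory receptor genes known for expression in prostate, were detected on neither array. Bitter taste receptors gave 1 of 24, TAS2R31 at 99.4 and 98.1, and beta defensins 1 of 14, DEFB4A at 110 and 96.6. Keratin-associated proteins of hair gave 14 of 41 (34.1%), and 3 of them were bright: KRTAP4-1 at 10510 and 8610 through 1 of 2 probes, KRTAP2-4 at 6538 and 5150 with 4 of 5 probes and KRTAP1-3 at 4983 and 4293 through 1 of 2 probes.

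The longest runs of undetected genes held several gene families, and runs of detected genes were longer, with up to 25 neighbours on chromosomes 1 and 11. No comparison with chance was made. The longest run of neighbouring measured protein-coding genes with none detected on both arrays held 17 genes on chromosome 4, from UGT2A3 to CABS1, with the UGT2 genes of glucuronidation, the casein genes and the salivary genes STATH, HTN1 and HTN3. The next held 16 genes on chromosome 11, of which 9 were olfactory receptors. Runs of 15 genes held the MS4A family on chromosome 11 and the LILR and KIR receptors of leukocytes on chromosome 19, and the keratin run on chromosome 12 had 14. By chromosome, the share of protein-coding genes detected ran from 54.1% of 690 on X and 55.5% of 663 on chromosome 4 to 73.7% of 498 on chromosome 15, beside 65.9% in all. Chromosome Y was left out.

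Promoters of undetected genes held fewer CG dinucleotides. Of the protein-coding genes, 13765 matched a RefSeq promoter, and where a gene had several starts the first listed was used. In the 250 bases before the start, detected genes had a median of 21 CG dinucleotides (25th to 75th percentile 14 to 28), and genes detected on neither array had 8 (3 to 21). Leaving out olfactory receptors kept the latter at 8. Of promoters with 0 to 9 CG dinucleotides 38.7% belonged to detected genes, of those with 10 to 19 it was 76.2%, of those with 20 to 29 79.8% and of those with 30 or more 81.1%. Median GC content was 64.8% in promoters of detected genes and 57.6% in those of undetected ones. The motif TATAAA on either strand was found in 6.03% of detected and 13.4% of undetected genes, and in 8.27% of all. Whether the frequency of this motif of A and T alone follows base composition was not tested. Among the 889 matched genes above the 95th percentile of intensity the motif was found in 10.2%, with a median of 21 CG dinucleotides as in detected genes at large. KLK3, KLK2 and VIM, shown above, belong to the poorest class, although VIM was among the brightest genes. CTNNA1, with 33 CG dinucleotides and no detected probe, belongs to the richest. These are descriptions over genes, which are not independent of each other, and no test was made.

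**Figure D5:**
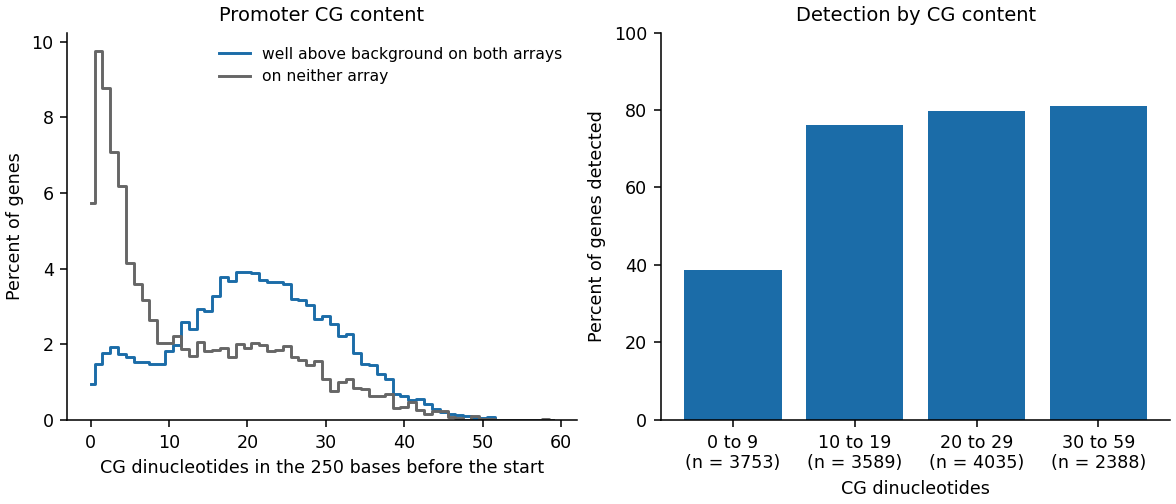
Left, percent of genes at each number of CG dinucleotides in the 250 bases before the start, for genes detected on both arrays and on neither. Right, percent of genes detected in 4 classes of CG content with the number of genes in brackets, rising from 38.7% in the poorest to 81.1% in the richest class.

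Few probes differed between arrays beyond the common shift. Of 21203 detected probes, 28 lay over 0.5 log2 units from the median difference and 3 lay over 1 unit from it. These 3 stood for SOX8, a neural crest factor, at 12180 and 2979, ZNF493, a zinc finger gene, at 339 and 773, and CCT3, a chaperonin subunit, at 10890 and 4252. SLC25A5, an adenine nucleotide carrier, gave 11510 and 6177 with 1 of its 4 probes, and ISG15 was also among the 28. The cause of these gaps was not tested.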

How the data were processed

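Total RNA of PC3 cells was hybridised to 2 dual-colour Agilent arrays on 1 slide. The authors scanned them and quantified each spot with Feature Extraction 9.5.1.1, and the deposited Cy3 intensities are unscaled spot means with local background medians. Probe coordinates are on hg18 per the file headers. The deposited log2 ratios and other data types of the study were not analysed here.

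The Cy3 mean signal was background-corrected by normexp with an offset of 50 over all spots of an array (limma 3.58.1, R 4.3.3), which was tested on simulated data. Control spots and outlier-flagged spots were then left out, and log2 values were averaged over the spots of a probe with no scaling between arrays (Python 3.11.15). A probe was detected where at least 0.5 of its spots carried the well-above-background flag on both arrays, and a gene through any of its probes. The brightest probe gave the gene's level. Names came from the RefSeq gene table for 17849 genes and from the array's own annotation for 12626.

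The 31 lists (628 measured genes) and all members were chosen with earlier results of these data known. Named were the label markers, the study's genes, the 20 brightest genes, the 4 brightest detected and the first 4 undetected members of each list, CTNNA1 with every probe, the 5 genes with the widest gaps between probes and the 5 longest undetected runs. Some of the genes that these rules name are not reported here. Further names, mostly list members, were chosen after their values were seen. With 1 group and no independent replicates, no test was made. Alternatives changed the background correction, the spot signal, outlier spots, scaling, the probe rule, the detection call, the naming of genes and the arrays used. The number of arrays limits the precision.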

Additional observations from a re-analysis of the deposited data

Results flagged for a closer look

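The Cy5 channel, which held RNA of cells given SUB1 siRNA and gives no intensity above, only calls for a few genes, carried signal for genes that the Cy3 channel missed. Of the genes detected on neither array in Cy3, 2421 (17.7%) were well above background in Cy5 on both arrays, 1073 of them protein-coding. They included FASN, ACACA, TMPRSS2, ATM, ESR1, GATA2, PDGFRA and VWF, which are thus undetected in the control channel only. In all, Cy5 called 19191 genes (63.0%) against 16061 in Cy3. Dye and siRNA cannot be told apart, since no array had the dyes swapped.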

How the results depend on the processing

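Of 297 counts of detected genes under the alternatives, 276 stayed within 1.5 times the reported count and 21 did not. The number of genes detected on both arrays ran from 11605 (RefSeq-named genes only) to 20478 (positive-and-significant flag), and was 16429 and 16459 with either array left out. It was 20257 and 18777 above the 95th and the 99th percentile of negative controls, and 13988 with over 0.5 of the probes required. List counts under these other rules stand beside all genes, not beside protein-coding genes, whose share under them is not given. The number on neither array was 7317 under the positive-and-significant flag, 6660 and 8942 above the 95th and the 99th percentile of negative controls, and 5828 among RefSeq-named genes. With the positive-and-significant flag, detected members were 10 for neuroendocrine, 5 for hepatocyte and 6 for muscle markers, 10 for cancer-testis antigens and 16 for steroid genes. Above the 95th percentile of negative controls they were 10 for neuroendocrine, 10 for haematopoietic, 5 for hepatocyte and 6 for muscle markers, 11 for cancer-testis antigens and 14 for steroid genes. Above the 99th percentile they were 5 for muscle markers and 10 for cancer-testis antigens. With over 0.5 of the probes required they were 4 for neuronal markers, 3 for cancer-testis antigens and 7 for tight junction genes, and with all spots required 1 for hepatocyte markers. The cause of these shifts was not tested. The SD of the difference between arrays ran from 0.0967 without background correction to 0.156 with the processed signal. Of 436 percentiles, 308 moved by less than the spread between arrays. Calls of dim genes, between the level of negative controls and about the median gene, therefore rest on the flag used, and brightness across genes rests on the probe. No paired analysis was possible because the labels give 1 control group.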
